A study of Mus musculus with 63 samples.

Results

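Heat shock proteins are molecular chaperones that hold, refold or hand on unfolded proteins. The 10 genes described here, of 55291 gene symbols in the count tables, were taken by symbol: the small heat shock proteins Cryab and Hspb1, the Hsp70 genes Hspa1a, Hspa1b and Hspa8, the endoplasmic reticulum chaperone Hspa5, the cytosolic Hsp90 gene Hsp90aa1, the Hsp110 gene Hsph1, and the cochaperones Dnajb1 and Bag3. All 10 were found once in every library. They were followed across 2 hippocampal regions, 2 genotypes, an entorhinal cortex lesion (ECL) and a synaptopodin co-immunoprecipitation (coIP).

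The tissue was the organotypic entorhino-hippocampal culture, a slice that keeps the entorhinal input to the hippocampus, prepared at postnatal day 3 to 5 from mice of either sex and kept for at least 18 days in vitro. Synpo+/+ cultures came from C57BL/6J mice, and Synpo-/- cultures from B6.129-Synpo tm1Mndl/Dllr mice, which lack the actin-binding protein synaptopodin of the spine apparatus. ECL cuts the perforant path and partly denervates the dentate gyrus (DG) and CA3. In the regional experiment each library held RNA of the DG or CA3 cut from 1 culture, either non-lesioned (control) or collected 3 days after ECL. The DG libraries were 4 control and 7 ECL of Synpo+/+, and 7 control and 4 ECL of Synpo-/-. The CA3 libraries were 2 control and 3 ECL of Synpo+/+, and 6 control and 6 ECL of Synpo-/-. In the coIP experiment 5 to 6 whole cultures (6 by the labels) were pooled per sample, lysed with cycloheximide, which holds ribosomes on mRNA, and synaptopodin was pulled down with its antibody on protein A beads (the coIP fraction), beside an aliquot of the precleared lysate (input). There were 5 input and 5 coIP libraries from non-lesioned Synpo+/+ cultures, 5 and 5 from lesioned Synpo+/+ cultures, for which the time after ECL is not given in the sources used here, and 2 and 2 from Synpo-/- cultures, whose lesion status the labels do not give.

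In the resting cell, heat shock factor 1 is held inactive by chaperones, and when unfolded proteins draw these away it binds heat shock elements, inverted repeats of the unit GAA, and switches on Hspa1a, Hspa1b, Hspb1, Dnajb1, Hsph1 and Bag3. Hspa8 and Hsp90aa1 are abundant in unstressed neurons, where the Hsp70 machine also uncoats clathrin vesicles and remodels synaptic complexes. Hspa5, also called BiP, answers to the unfolded protein response of the endoplasmic reticulum through a separate element. Cryab is made by oligodendrocytes and by astrocytes, in which it rises in many forms of glial reaction.

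RefSeq windows of the 250 bases before the RefSeq start of the gene were at hand for 7 of the 10 genes on GRCm38.p6. Those of Hspa1a, Hspa1b and Hspb1 are shown because they carry the outward pair of heat shock units and belong to the members with the largest differences between regions or after ECL. Capitals mark each pair of units facing outward (GAANNTTC, the same on both strands), which 6.69% of 32817 windows of this length hold.
Hspa1a (chr17:34972157-34972406, minus strand): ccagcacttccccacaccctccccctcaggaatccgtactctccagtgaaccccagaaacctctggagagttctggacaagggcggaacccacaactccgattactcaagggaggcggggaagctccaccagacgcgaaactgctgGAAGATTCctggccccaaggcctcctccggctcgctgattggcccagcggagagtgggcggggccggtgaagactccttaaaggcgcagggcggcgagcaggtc
Hspa1b (chr17:34959239-34959488, minus strand): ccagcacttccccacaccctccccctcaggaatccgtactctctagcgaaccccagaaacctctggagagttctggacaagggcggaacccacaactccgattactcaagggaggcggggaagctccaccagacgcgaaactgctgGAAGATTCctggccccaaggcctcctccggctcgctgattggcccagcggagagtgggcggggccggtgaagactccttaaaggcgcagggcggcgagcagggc
Hspb1 (chr5:135887669-135887918, plus strand): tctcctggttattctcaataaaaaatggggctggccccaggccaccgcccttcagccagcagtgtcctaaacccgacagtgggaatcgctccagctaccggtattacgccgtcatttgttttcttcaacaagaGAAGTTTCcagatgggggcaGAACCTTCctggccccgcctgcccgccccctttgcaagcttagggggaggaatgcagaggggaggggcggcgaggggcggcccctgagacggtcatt

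The Hspa1a and Hspa1b windows differed at 3 of 250 bases, written from Hspa1a to Hspa1b and counted from 1 at the 5′ end as C44T, T47C and T249G, none of them in the marked pair, which ended 96 bases before the gene start in both. Hspb1 held 2 outward pairs, ending 109 and 89 bases before its start. An inward pair (TTCNNGAA, in 7.16% of windows) stood 25 bases before the RefSeq start of Hsph1. It lies in the 40 bases of this window that are inside the annotated gene used for counting. The longer form with 3 units (GAANNTTCNNGAA or its reverse complement, in 0.466% of windows) was found in none of the 7 windows, and no pair was found in those of Hspa5, Dnajb1 and Bag3. Hspa5 held the endoplasmic reticulum stress element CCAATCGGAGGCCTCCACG (searched on both strands as CCAAT, any 9 bases and CCACG, in 0.113% of windows), at chr2:34772025-34772043 on the plus strand and ending 46 bases before the start in this window. The first part of this element is a CCAAT box, which 33.8% of windows hold. The Hspa5 window reaches 120 bases into the annotated gene used for counting, and the element lies in that part. Hsph1 and Dnajb1 each had 2 RefSeq starts, and only the window of the start nearest the annotated gene start was searched. All matches given here are descriptions of the letters only.

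On GRCm38 (mm10), the build of the counts, all 10 are protein-coding genes. The small heat shock protein genes are Cryab, chr9:50751325-50756636 on the plus strand, and Hspb1, chr5:135887919-135889563 on the plus strand. Hspa1a, chr17:34969190-34972156, and Hspa1b, chr17:34956436-34959238, are neighbours on the minus strand with 1 exon each. Hspa8 is at chr9:40800984-40810087 (plus), Hspa5 at chr2:34771970-34777547 (plus), Hsp90aa1 at chr12:110690605-110702728 (minus) and Hsph1 at chr5:149614287-149636376 (minus). The cochaperone genes are Dnajb1, chr8:83608193-83612653 (plus), and Bag3, chr7:128523616-128546981 (plus). Counts were made over whole genes without regard to strand, and some of these values are uncertain for that reason. Cryab shares 252 bases, 17% of its exons, with Hspb2 on the other strand, which stood at group means of 0.863 to 2.21 CPM (counts relative to library size) against 120.1 CPM or more of Cryab. Of all stretches of 100 bases, 47.1% in the Hspa1a transcript and 49.9% in the Hspa1b transcript occur unchanged in the other, so reads of this pair may have been split or lost. Gm20481, over 19% of the Hspa1a exons, and the small nucleolar RNAs within Hspa8 were at 0 in every library. Reads over shared bases may be assigned to neither gene. The low values of these neighbours, Hspb2 included, therefore cannot show whether member reads were lost.

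Total counts were 14055930 to 46043990 (median 22354491) in the 39 regional libraries and 11601154 to 53682143 (median 23265704) in the 24 of the coIP experiment. Levels are given as CPM after TMM scaling over all libraries of the experiment, and ± stands for the SD over libraries. Fold changes were scaled only over the libraries compared, so they can differ from the ratio of the CPM. The sum of 5 dentate granule markers was 294.9 to 610.3 CPM in the DG libraries but for 1, and 34.3 to 113 CPM in CA3. The exception was Synpo+/+ DG ECL replicate 5, with 34.0 CPM of these markers and 356 CPM of CA3 markers (61.1 to 143 in the other DG libraries), so the values of the lesioned Synpo+/+ DG are given with this library and, where it moved them, without it. Synpo itself was no lower where the label was Synpo-/- (43.5 ± 8.29 CPM, n = 23, against 28.4 ± 5.99, n = 16, in the regional experiment), and gene-level counts cannot show the exons they came from, so Synpo-/- stands here for libraries labelled Synpo-/-. Where nothing ties libraries to separate animals, the p-values measure the spread between these cultures or lysate pools.

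Per kilobase of exon, the members spanned a wide range of levels. In Synpo+/+ DG control libraries (n = 4) Hsp90aa1 led with 373 ± 21.3 CPM per kb, followed by Hspa8 with 281 ± 32.8, Hspa5 with 116 ± 6.33 and Cryab with 81.2 ± 11.8, and none of these 4 overlapped its neighbour. Hsph1 (15.6 ± 1.37) and Hspb1 (12.5 ± 3.05) did overlap, and Dnajb1 (6.55 ± 1.47) lay below both. Bag3 (2.49 ± 0.243), Hspa1b (1.15 ± 0.816) and Hspa1a (1.02 ± 0.189) were the lowest and each overlapped the next. In the non-lesioned Synpo+/+ input (n = 5), a separate experiment with its own library preparation, Hspa8 was first with 1053 ± 119.7 CPM per kb, Hspa5 (329.6 ± 57.9) and Hsp90aa1 (316 ± 24.8) overlapped, and Hspb1 (2.27 ± 0.532) and Hspa1b (0.175 ± 0.0621) were near the bottom. Over all 24 libraries of the coIP experiment Hspa1b had 6 to 80 counts per library, against 26 to 210 in the regional libraries, so its values carry the most counting error.

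After ECL 1 of the 10 genes rose in the Synpo+/+ DG and 3 in the Synpo-/- DG, and the small heat shock protein Cryab was the one called in both. The Synpo+/+ DG controls had 135, 95.2, 122 and 127 CPM of Cryab. The 7 ECL libraries ran from 203 to 303 with a median of 246 CPM. All lesioned libraries lay above all controls, and Cryab rose 2.05-fold (log2 fold change 1.04, SE 0.14, adjusted p 0.000465, edgeR's quasi-likelihood test, adjusted over all genes by Benjamini-Hochberg). Without Synpo+/+ DG ECL replicate 5, itself at 287 CPM, the log2 fold change was 0.99 (adjusted p 9.83e-05). The study tested the lesion in the Synpo+/+ DG on these same samples, so this is not independent evidence of the direction of Cryab. The study also tested the lesion in Synpo+/+ CA3 and in both regions of Synpo-/-, and coIP against input. Calls given below for these comparisons are therefore not independent of the study either. Cryab was the only member called among the 10, while 12.2% of 23720 genes tested were called in this comparison (13.8% without replicate 5, again with Cryab alone among the members). The members' median log2 fold change was 0.36 (0.26 without replicate 5), against -0.0030 over all genes.

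In the DG of libraries labelled Synpo-/-, both small heat shock proteins and the cochaperone Bag3 rose. The 7 controls had 149.7 to 206 CPM of Cryab with a median of 182, and the 4 ECL libraries had 302, 282, 251 and 273 CPM. These groups did not overlap, and Cryab rose (log2 fold change 0.58, SE 0.11, adjusted p 0.00269, edgeR). The other small heat shock protein, Hspb1 (Hsp27), which binds actin and unfolded proteins, had 8.03 to 15.4 CPM (median 12.8) in the controls and 18.6, 17.1, 20.7 and 24.2 CPM after ECL. It rose 1.68-fold with no overlap (log2 fold change 0.75, SE 0.17, adjusted p 0.00973, edgeR). Bag3, the cochaperone that links Hsp70 to small heat shock proteins and to selective autophagy, had 6.69 to 9.29 CPM (median 6.91) in the controls and 11.3, 11.9, 10.1 and 10.1 after ECL. Bag3 rose 1.46-fold, again without overlap (log2 fold change 0.55, SE 0.12, adjusted p 0.00715, edgeR). With the replicate number as a block, neither Hspb1 (adjusted p 0.0785) nor Bag3 (0.0516, edgeR) was called, and a call of Bag3 did not survive a minimum of 300 for the mean normalized count. Thus 3 of 10 members were called where 8.53% of 23310 genes were, all 3 higher, while the members' median was -0.0035 against 0.013 over all genes.

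Hspb1 and Bag3 in the Synpo+/+ DG had the same sign without passing the test. Hspb1 stood at 11.3, 17.3, 10.2 and 12.6 CPM in controls and at 11.4 to 19.8 (median 15.6) after ECL, which overlap (log2 fold change 0.31, adjusted p 0.209, edgeR). Bag3 had 6.11, 7.23, 5.77 and 6.40 CPM in controls and 6.92 to 15.6 (median 8.24) after ECL, with 1 library far above the rest (log2 fold change 0.49, adjusted p 0.101, edgeR). The difference between genotypes was tested directly and was not called for either gene (interaction on the log2 scale, Synpo-/- minus Synpo+/+, 0.41 for Hspb1 with adjusted p 0.5 and 0.021 for Bag3 with adjusted p 0.973, edgeR).

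**Figure D1:**
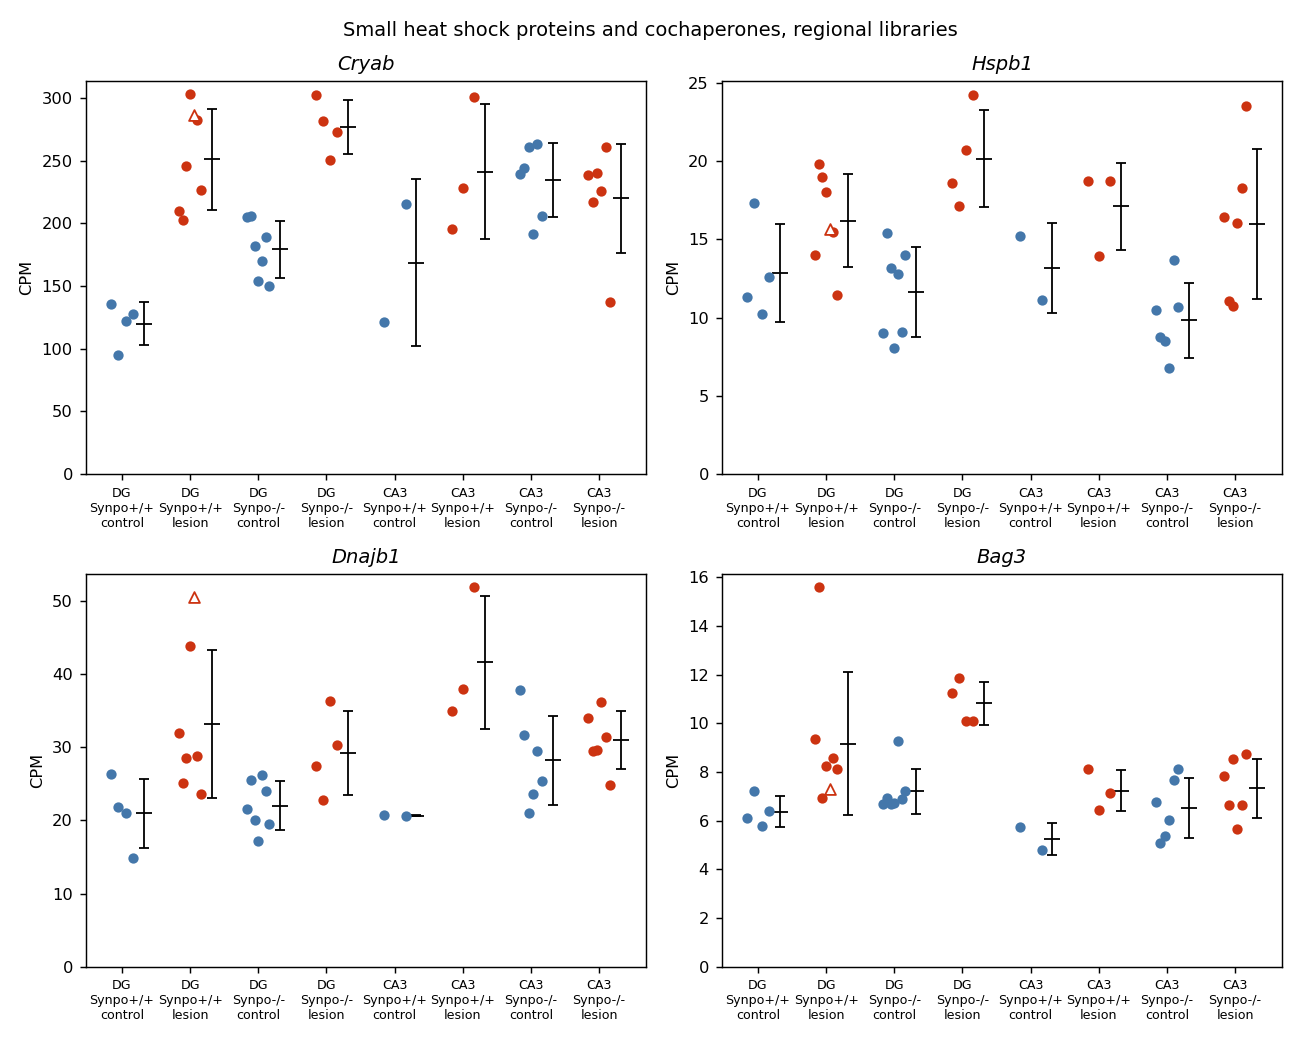
Levels of Cryab, Hspb1, Dnajb1 and Bag3 in CPM (y axis, from 0) in the 8 regional groups (x axis). Points are libraries, blue for control and red for ECL, the open triangle is Synpo+/+ DG ECL replicate 5, and bars give the mean ± SD. Cryab of the lesioned DG, 203 to 303 CPM in Synpo+/+ and 251 to 302 CPM in Synpo-/-, lies above its own controls in both genotypes.

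Glial markers moved with Cryab in the DG. In Synpo+/+, 6 of 10 astrocyte and 10 of 10 microglial markers were called higher after ECL, and 1 of 13 oligodendrocyte markers (8, 10 and 2 without replicate 5). Their sums went from 4721 to 5462 CPM in controls to 7280.0 to 9354 CPM after ECL for astrocytes and from 444 to 609 to 1141 to 1475 CPM for microglia. Oligodendrocyte markers, the other known site of Cryab, summed to 628 to 1069 CPM in controls and 889.8 to 2947 after ECL, which overlap, and the 2947 CPM belong to replicate 5 (889.8 to 1305 without it). In Synpo-/- DG, 7 of 10 astrocyte, 8 of 10 microglial and 1 of 13 oligodendrocyte markers were called higher, with astrocyte sums of 5039 to 5930.4 CPM in controls and 7718 to 9874 CPM after ECL and microglial sums of 532 to 1162 and 1163 to 1611 CPM. Endothelial markers were called lower for 2 of 8 in Synpo+/+ DG and for none in Synpo-/- DG. No marker of these lists was at 0 in any of these libraries. Their part in the change of Cryab, Hspb1 or Bag3 was not tested, and in tissue RNA fewer or more cells of a type and less or more RNA per cell cannot be told apart.

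Dnajb1, the Hsp40 that feeds unfolded proteins to Hsp70, was the member nearest to a call in the Synpo+/+ DG. It had 26.3, 21.8, 21.0 and 14.9 CPM in controls and 23.5 to 50.6 (median 28.8) after ECL. The groups overlap, and the log2 fold change was 0.63 (SE 0.20, adjusted p 0.0504, edgeR). DESeq2 called it (adjusted p 0.031), and so did edgeR without control replicate 1 (adjusted p 0.0458), without ECL replicate 2 (0.0438) or without ECL replicate 7 (0.0369). Without ECL replicate 5, its highest library, the value was 0.49 (adjusted p 0.0552). In Synpo-/- DG, Dnajb1 had 17.2 to 26.2 CPM (median 21.5) in controls and 27.5, 22.7, 36.3 and 30.3 after ECL (log2 fold change 0.37, adjusted p 0.0994, edgeR). It was called there without Synpo-/- DG ECL replicate 2 (adjusted p 0.0325).

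In Synpo+/+ CA3, Dnajb1 was the single member called, 1 of 10 where 1.78% of 22340 genes were. The 2 controls had 20.7 and 20.6 CPM, and the 3 ECL libraries 35.0, 37.9 and 51.9. Every ECL library was above both controls, and Dnajb1 rose 1.87-fold (log2 fold change 0.90, SE 0.17, adjusted p 0.0399, edgeR). The call was lost without control replicate 1 (adjusted p 0.121), control replicate 2 (0.0552), ECL replicate 1 (0.0603) or ECL replicate 2 (0.128). The lone control then left is assumed to vary like the ECL libraries. The members' median log2 fold change was 0.35, against -0.010 over all genes.

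The other members of Synpo+/+ CA3 were not called, and 9 of the 10 log2 fold changes were positive, Hspa1b being the exception (-0.48). Hspa5 stood at 422 and 478 CPM in controls and at 603, 623 and 737 after ECL (log2 fold change 0.44, adjusted p 0.0845, edgeR). DESeq2 called it (adjusted p 0.0486). Hspa8 had 1584 and 1757 CPM in controls and 1953, 2146 and 2772 after ECL (log2 fold change 0.35, adjusted p 0.185, edgeR). Neither gene overlapped between the groups of 2 and 3 libraries, but groups this small separate easily. Hsp90aa1 (log2 fold change 0.018, adjusted p 0.94, edgeR), Hspa1a, Hspa1b, Hsph1, Dnajb1 and Bag3 did not overlap either. How many of all genes did so was not counted. Cryab had 122 and 216 CPM against 196, 228 and 301, which overlap (log2 fold change 0.41, adjusted p 0.297, edgeR). Microglial markers were called higher for 2 of 10, and the astrocyte and oligodendrocyte markers for none.

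In Synpo-/- CA3, with 6 libraries in each group, no member was called by edgeR and none by DESeq2, where 0.0770% of 20772 genes were called. An unadjusted p under 0.05 was found for 1 member, Hspb1, and for 7.27% of all genes tested. It had 6.77 to 13.6 CPM (median 9.63) in the control group and, after ECL, 10.7 to 23.5 (median 16.2), a log2 fold change of 0.73 close to that of the Synpo-/- DG (SE 0.19, adjusted p 0.321, edgeR). Cryab had 192 to 264 CPM (median 242) in the control group and, after ECL, 137 to 261 with a median of 232 (log2 fold change -0.087, adjusted p 0.92, edgeR). The difference between this value and that of the DG was not tested. Oligodendrocyte markers were called lower for 2 of 13 there, with sums of 2017 to 3248 CPM in controls and 1334 to 1876 after ECL.

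**Figure D2:**
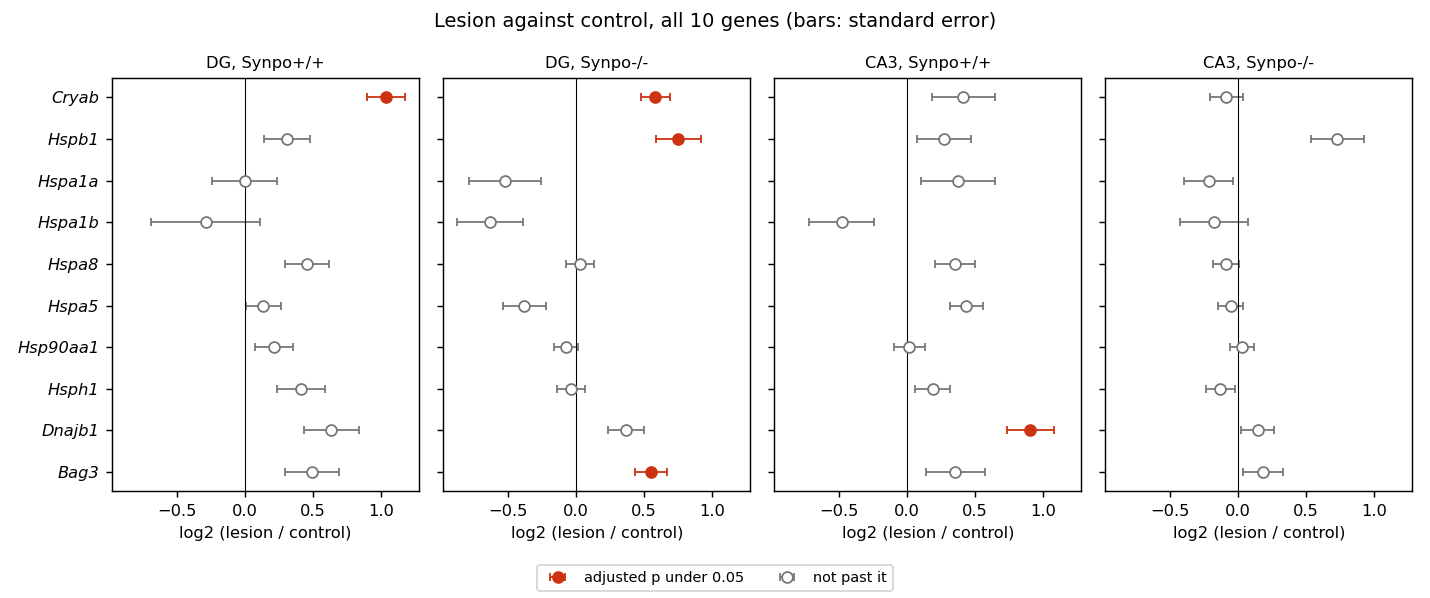
Log2 fold change of ECL against control (x axis) for the 10 genes (y axis) in each region and genotype. Points are edgeR estimates with the standard error as bars, filled red where the adjusted p is under 0.05 and open grey otherwise. The filled points are Cryab in DG of both genotypes (1.04 and 0.58), Hspb1 (0.75) and Bag3 (0.55) in Synpo-/- DG, and Dnajb1 (0.90) in Synpo+/+ CA3.

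The abundant chaperones did not pass the test after ECL in either region. Hspa8, the constitutive Hsp70, had 1379, 1039.8, 1240.3 and 1179 CPM in Synpo+/+ DG controls and 1333 to 2524 (median 1542) after ECL. Of the lesioned libraries, replicate 2 alone lay below the highest control, and the log2 fold change was 0.46 (SE 0.16, adjusted p 0.0678, edgeR) or 0.33 without replicate 5 (adjusted p 0.0565). DESeq2 called it (adjusted p 0.0461). In Synpo-/- DG, Hspa8 stood at 1155 to 1551 CPM (median 1414) and at 1259.8, 1418, 1518 and 1585 (log2 fold change 0.029, adjusted p 0.924, edgeR). Hsp90aa1 had 1567, 1485, 1439 and 1368 CPM in Synpo+/+ DG controls and 1405 to 2481 (median 1647) after ECL (log2 fold change 0.21, adjusted p 0.296, and 0.092 without replicate 5, adjusted p 0.53, edgeR). Hsph1, the exchange factor of Hsp70, had 120.5, 102, 123 and 108 CPM and 119 to 261 (median 137), where the 261 CPM belong to replicate 5 (log2 fold change 0.41, adjusted p 0.12, and 0.22 without it, adjusted p 0.125, edgeR).

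Hspa1a and Hspa1b, the copies that heat shock induces most, stayed at a few CPM in both conditions. Hspa1a had 2.88, 3.85, 2.65 and 2.72 CPM in Synpo+/+ DG controls and 2.02 to 4.87 (median 2.77) after ECL (log2 fold change -0.0022, adjusted p 0.996, and -0.17 without replicate 5, adjusted p 0.613, edgeR). Hspa1b had 1.19, 6.50, 2.55 and 2.63 CPM and 1.39 to 5.59 (median 2.30), where the 5.59 CPM belong to replicate 5 (log2 fold change -0.29, adjusted p 0.625, and -0.62 without it, adjusted p 0.226, edgeR). Its sign depended on single libraries, with log2 fold changes of -0.62 to 0.28 when 1 library was left out. In Synpo-/- DG, neither passed the test. Hspa1a had 2.17 to 7.27 CPM (median 3.35) in controls and, after ECL, 2.59, 3.55, 2.12 and 2.33 (log2 fold change -0.52, adjusted p 0.268, edgeR), and Hspa1b had 2.12 to 5.38 CPM (median 2.77) and 1.51, 2.76, 1.95 and 2.20 (log2 fold change -0.63, adjusted p 0.128, edgeR). These are 2 of the 3 genes with an outward pair of heat shock units in the windows shown, and the other, Hspb1, had a log2 fold change of 0.75 there. The difference between the genes was not tested.

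Hspa5 had a spread of its own in Synpo-/- DG controls. These ran from 477 to 949.7 CPM (median 593), and the 4 ECL libraries were at 458, 524, 526 and 533, which overlap (log2 fold change -0.38, adjusted p 0.161, edgeR). In Synpo+/+ DG it had 500.1, 451, 498 and 511 CPM in controls and 438 to 728 (median 514) after ECL (log2 fold change 0.14, adjusted p 0.469, and 0.046 without replicate 5, adjusted p 0.783, edgeR). Of 23 other genes of endoplasmic reticulum folding and stress, 3 were called higher and 0 lower in Synpo+/+ DG (7.86% and 4.31% of all genes tested), with Pdia4, a disulfide isomerase, first (1.60-fold, adjusted p 0.00517, edgeR). In Synpo-/- DG, where 5.17% of all genes were called higher and 3.36% lower, 2 were called higher, among them Dnajc3, a partner of BiP (1.40-fold, adjusted p 0.00537, edgeR), and 2 lower, among them Ddit3, the transcription factor Chop (1.55-fold lower, adjusted p 0.00834, edgeR).

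Whether the lesion response differed between genotypes was tested by the interaction of both factors. In the DG 0 members were called by edgeR or DESeq2 where 0.00381% of 26245 genes were called by edgeR, and 4 members and 10.4% of all genes had an unadjusted p under 0.05. These were Cryab (interaction -0.49 on the log2 scale, SE 0.18), Hspa8 (-0.47), Hspa5 (-0.55) and Hsph1 (-0.49), each with an adjusted p of 0.478. Without replicate 5 the values were -0.46, -0.35, -0.48 and -0.32 (each with an adjusted p of 0.595, edgeR), and Hsph1 no longer had an unadjusted p under 0.05, which left 3 members. In CA3, 0 members were called by either tool where 0% of 26821 genes were called by edgeR, and 3 members and 17.1% of all genes had an unadjusted p under 0.05. These members were Hspa8 (-0.47), Hspa5 (-0.52) and Dnajb1 (-0.80, SE 0.26, adjusted p 0.159, edgeR). A difference in the response of Cryab or Dnajb1 between genotypes was not shown at this number of libraries.

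The genotypes themselves were compared in each region and condition. No member was called in control DG (0.0166% of 24143 genes called), control CA3 (0.00413% of 24203), lesioned DG (0.0166% of 24100) or lesioned CA3 (0.00891% of 22447) by edgeR. An unadjusted p under 0.05 was found for 2, 4, 0 and 1 members in turn, and for 15.5%, 16.4%, 3.56% and 6.16% of all genes. DESeq2 called 1 member in control DG, Cryab, and 0 in the others. Cryab in control DG had 135, 95.2, 122 and 127 CPM in the Synpo+/+ libraries against 149.7 to 206 CPM (median 182) in the 7 labelled Synpo-/-, with no overlap (log2 fold change 0.55, SE 0.12, adjusted p 0.199, edgeR). DESeq2 gave an adjusted p of 0.00555, and edgeR called it without Synpo-/- DG control replicate 4 (adjusted p 0.0263). Oligodendrocyte markers summed to 571 to 1714 CPM in these Synpo-/- libraries and 628 to 1069 CPM in the Synpo+/+ ones, and astrocyte markers to 5039 to 5930.4 and 4721 to 5462 CPM, with 0 of 13 and 0 of 10 called. Their part in the Cryab values was not tested. After ECL, Cryab of the 2 genotypes overlapped in the DG (log2 fold change 0.12, adjusted p 1.0, edgeR).

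**Figure D3:**
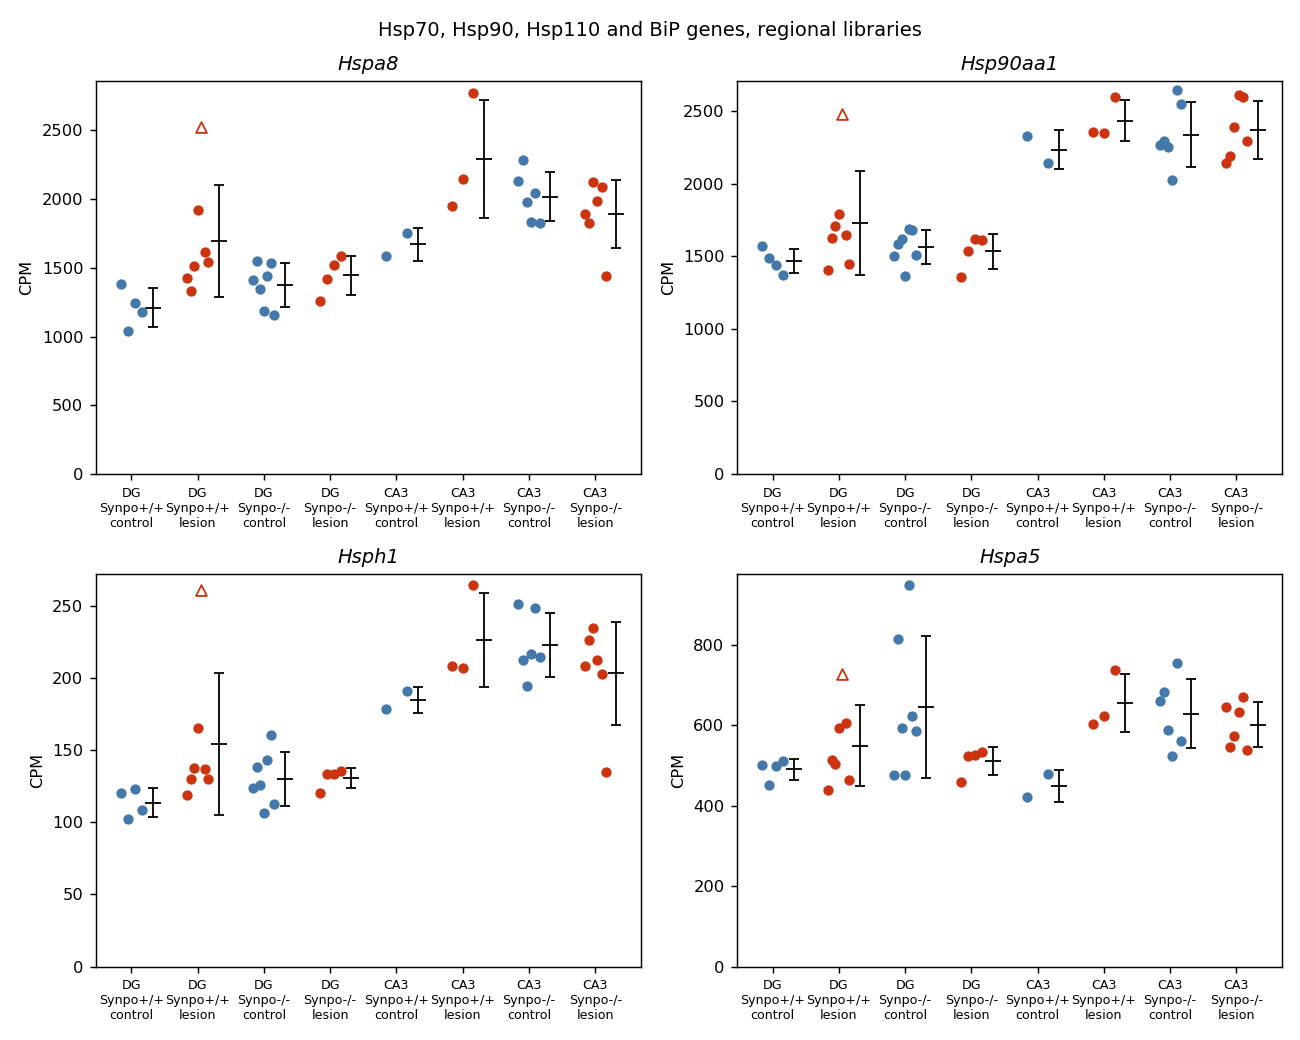
Levels of Hspa8, Hsp90aa1, Hsph1 and Hspa5 in CPM (y axis, from 0) in the 8 regional groups (x axis), drawn like the small heat shock proteins, with the open triangle for Synpo+/+ DG ECL replicate 5. Hsp90aa1 and Hsph1 lie higher in CA3 than in DG control libraries of both genotypes, and the triangle lies at the CA3 level, 2481 CPM for Hsp90aa1.

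Hsph1 and Hsp90aa1 were lower in DG than in CA3 in the control cultures of both genotypes. In control Synpo+/+ cultures 2 of 10 members were called between DG and CA3, where 5.39% of 25656 genes were, both lower in DG. Hspa8 (log2 fold change -0.45, adjusted p 0.099, edgeR) and Hspa5 (0.14) were not called. DESeq2 called Hspa8 (-0.48, adjusted p 0.0348). Hsph1 had 120.5, 102, 123 and 108 CPM in DG and 178 and 191 in CA3, 1.61-fold lower in DG (log2 fold change -0.69, SE 0.13, adjusted p 0.00574, edgeR). Hsp90aa1, the stress-responsive cytosolic Hsp90, had 1567, 1485, 1439 and 1368 CPM in DG and 2328 and 2142 in CA3, 1.51-fold lower (log2 fold change -0.60, SE 0.14, adjusted p 0.0179, edgeR). Neither gene overlapped between the regions. These calls depend on single samples. The Hsph1 call was lost without CA3 control replicate 2 (adjusted p 0.0779), and that of Hsp90aa1 without CA3 control replicate 1 or 2 (0.146 and 0.0642) or DG control replicate 3 or 4 (0.081 and 0.0617). Leaving out either CA3 control leaves 1 library in CA3. Cryab was not called here (log2 fold change -0.47, adjusted p 0.216, edgeR). Without CA3 control replicate 1 its log2 fold change was -0.82.

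The 13 control libraries of Synpo-/- gave 4 of 10 members called, where 25.5% of 21408 genes were, all lower in DG. Hsph1 had 107 to 160.4 CPM (median 126) in DG and 195 to 251 (median 216) in CA3, 1.60-fold lower (log2 fold change -0.68, SE 0.087, adjusted p 9.71e-06, edgeR). Hsp90aa1 had 1363 to 1689 CPM (median 1586) and 2023 to 2643 (median 2278), 1.39-fold lower (-0.47, SE 0.071, adjusted p 5.07e-05, edgeR), and Hspa8 had 1155 to 1551 (median 1414) and 1826 to 2288 (median 2011), 1.37-fold lower (-0.45, SE 0.081, adjusted p 0.000375, edgeR). None of these 3 overlapped between the regions. Cryab did overlap, with 149.7 to 206 CPM in DG and 192 to 264 in CA3 (-0.28, SE 0.091, adjusted p 0.0309, edgeR), and its call was lost without any of CA3 control replicates 1, 2, 3 or 5 (adjusted p 0.0579, 0.0648, 0.0815 and 0.078) or DG control replicates 4 or 7 (0.059 and 0.0578). Hspa1b was called without CA3 control replicate 2 (adjusted p 0.0137), and Hspa1a and Hspa1b without DG control replicate 5 (0.0222 and 0.023). The members' median log2 fold change was -0.30, against 0.054 over all genes. Of 35 further heat shock and cochaperone genes, 15 were called lower and 1 higher in DG there (median -0.25), where 12.5% of all genes were called lower and 13.1% higher.

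After ECL, the comparison of regions in Synpo+/+ turned on DG ECL replicate 5, the library with CA3 markers. With it, 0 of 10 members were called by edgeR and 0 by DESeq2, where 2.05% of 24029 genes were called by edgeR, and 3 members and 19.6% of all genes had an unadjusted p under 0.05. Without it, 5 members were called where 19.8% of 23965 genes were, all lower in DG: Hsph1 (log2 fold change -0.68, adjusted p 0.00025), Hsp90aa1 (-0.55, 0.000504), Hspa8 (-0.51, 0.00583), Hspa1b (-0.70, 0.0379) and Hspa1a (-0.65, 0.0431, edgeR). That library had 2481 CPM of Hsp90aa1 against 1405 to 1791 in the other 6 and 2346 to 2598 in CA3, and 5.59 CPM of Hspa1b against 1.39 to 2.72 and 3.22 to 3.80.

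In the lesioned Synpo-/- libraries 5 of 10 members were called between the regions, where 13.6% of 22767 genes were. Hsp90aa1 had 1359, 1539, 1619 and 1614 CPM in DG and 2145 to 2613 (median 2339.9) in CA3, 1.54-fold lower in DG with no overlap (log2 fold change -0.62, SE 0.12, adjusted p 0.00208, edgeR). Hsph1 had 120.0, 134, 133 and 136 CPM against 135 to 235 (median 210.3), which overlap through CA3 ECL replicate 6 (-0.62, adjusted p 0.00505, edgeR). Hspa1b had 1.51, 2.76, 1.95 and 2.20 CPM in DG and 3.11 to 6.39 (median 4.40) in CA3, 2.11-fold lower with no overlap (-1.08, SE 0.23, adjusted p 0.00593, edgeR). Hspa1a had 2.59, 3.55, 2.12 and 2.33 CPM in DG and 2.81 to 5.50 (median 4.24) in CA3, which overlap, and was 1.60-fold lower (-0.68, adjusted p 0.0477, edgeR), a call that was lost without any of 8 of the 10 libraries, all but DG ECL replicate 2 and CA3 ECL replicate 6, at adjusted p of 0.0602 to 0.153.

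Bag3 was the one member called in the other direction. It had 11.3, 11.9, 10.1 and 10.1 CPM in lesioned Synpo-/- DG and 5.67 to 8.75 (median 7.24) in lesioned CA3, 1.48-fold higher in DG with no overlap (log2 fold change 0.57, SE 0.14, adjusted p 0.015, edgeR). This call was lost without CA3 ECL replicate 4 (adjusted p 0.0513), CA3 ECL replicate 5 (0.0528) or DG ECL replicate 2 (0.0582). The count of members called was 3 without CA3 ECL replicate 4 or 5 and 8 without CA3 ECL replicate 6, which added Hspa8 (-0.45, adjusted p 0.00245), Hspa5 (-0.26, 0.0448) and Hspb1 (0.48, 0.0477). Hspa8 was also called without CA3 ECL replicate 2 (adjusted p 0.0434) and by DESeq2 (0.00752). In the same comparison 6 of 10 astrocyte and 6 of 10 microglial markers were called higher in DG, and their part in the Bag3 values was not tested.

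Oligodendrocyte markers separated the regions as well. In DG, 10 of 13 were called lower than in CA3 in control Synpo+/+, 13 of 13 in control Synpo-/-, 0 of 13 in lesioned Synpo+/+ (11 without DG ECL replicate 5) and 3 of 13 in lesioned Synpo-/-. Their sum was 571 to 1714 CPM in Synpo-/- DG controls and 2017 to 3248 in CA3 controls, and 785 to 1869 and 1334 to 1876 CPM after ECL. Their part in the regional difference of Cryab or of the large chaperones was not tested.

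The coIP fraction held less Cryab and less Dnajb1 than the input in all 3 sets of cultures, while most members did not pass the test. Among non-lesioned Synpo+/+ samples 3 of 10 members were called, where 55.0% of 18222 genes were. Cryab had 319, 287, 312, 308 and 267 CPM in the inputs and 131, 172, 138, 186 and 192 in the coIP samples, in order of replicate. All coIP values lay below all inputs, 1.80-fold lower (log2 fold change -0.85, SE 0.11, adjusted p 1.73e-05, edgeR). Dnajb1 had 87.9, 114, 116, 103 and 95.3 CPM in the inputs and 52.3, 63.4, 57.2, 69.3 and 53.4 in the coIP samples, 1.72-fold lower with no overlap (-0.78, SE 0.11, adjusted p 2.42e-05, edgeR). Hspa1a went the other way, from 2.38, 5.49, 3.78, 4.72 and 4.56 CPM to 6.33, 6.26, 6.61, 7.61 and 5.94. It was higher in the coIP in every pair, 1.59-fold (0.66, SE 0.20, adjusted p 0.0106, edgeR), a call lost when the mean normalized count had to exceed 300. In the other sets Hspa1a was not called (0.51 in lesioned Synpo+/+, adjusted p 0.132, and 0.49 in Synpo-/-, adjusted p 0.163, edgeR), except in lesioned Synpo+/+ samples with a trend over gene length removed (0.74, adjusted p 0.0395). The members' median was 0.047 and that of all genes 0.044.

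Lesioned Synpo+/+ samples gave 3 of 10 members called, where 58.3% of 18229 genes were. Cryab had 366, 415, 412, 366 and 434 CPM in the inputs and 253, 133, 236, 113 and 280.4 in the coIP samples, 1.95-fold lower with no overlap (log2 fold change -0.96, SE 0.21, adjusted p 0.00115, edgeR). The coIP samples fell into a lower pair, replicates 2 and 4, and a higher group of 3. Dnajb1 had 48.9, 43.4, 54.9, 83.2 and 87.2 CPM in the inputs and 35.2, 23.3, 27.8, 42.2 and 45.6 in the coIP samples. The groups overlap, but each coIP sample lay below the input of the same number (-0.86, SE 0.22, adjusted p 0.00402, edgeR without pairing). Hspa1b had 0.251, 0.514, 0.312, 0.368 and 0.361 CPM in the inputs and 0.550, 0.710, 0.680, 0.854 and 0.767 in the coIP samples, on 6 to 18 counts each (0.97, SE 0.33, adjusted p 0.0195, edgeR), a call that was lost without input ECL replicate 1 (adjusted p 0.0572). Hspa8 (-0.20, adjusted p 0.123) was called without coIP ECL replicate 1 (-0.27, adjusted p 0.0317, edgeR).

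In the libraries labelled Synpo-/-, 4 of 10 members were called with 2 samples per fraction, where 31.4% of 20892 genes were. Cryab had 353 and 347 CPM in the inputs and 211 and 146 in the coIP samples, 2.01-fold lower (log2 fold change -1.01, SE 0.17, adjusted p 0.00109, edgeR). Dnajb1 had 96.8 and 105 CPM and 60.1 and 63.7, 1.67-fold lower (-0.74, SE 0.13, adjusted p 0.0017, edgeR). Both were thus lower in the precipitate of cultures labelled as lacking the antibody's target, and both were still called without any 1 of these 4 libraries, which leaves 1 sample in a fraction. In a fit over all libraries of the experiment Dnajb1 was not called (-0.70, adjusted p 0.0628, edgeR). Hsp90aa1, at 1083 and 1137 CPM in the inputs and 1544 and 1432 in the coIP samples, was higher (0.39, SE 0.13, adjusted p 0.0402, edgeR), a call lost without input replicate 1 or 2 (adjusted p 0.16 and 0.113) or coIP replicate 1 (0.0593). Hspa1b had 0.618 and 0.495 CPM and 1.40 and 1.41 (1.30, SE 0.44, adjusted p 0.0406, edgeR). That call was lost without any 1 of the 4 libraries (input replicate 1, 0.0847, input replicate 2, 0.191, coIP replicate 1, 0.0774, coIP replicate 2, 0.088) and under DESeq2 (0.0726). The count of members called fell to 2 without either input or without coIP replicate 1. Hspa8 (-0.19, adjusted p 0.345) was called without coIP replicate 2 (-0.36, adjusted p 0.038, edgeR).

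**Figure D4:**
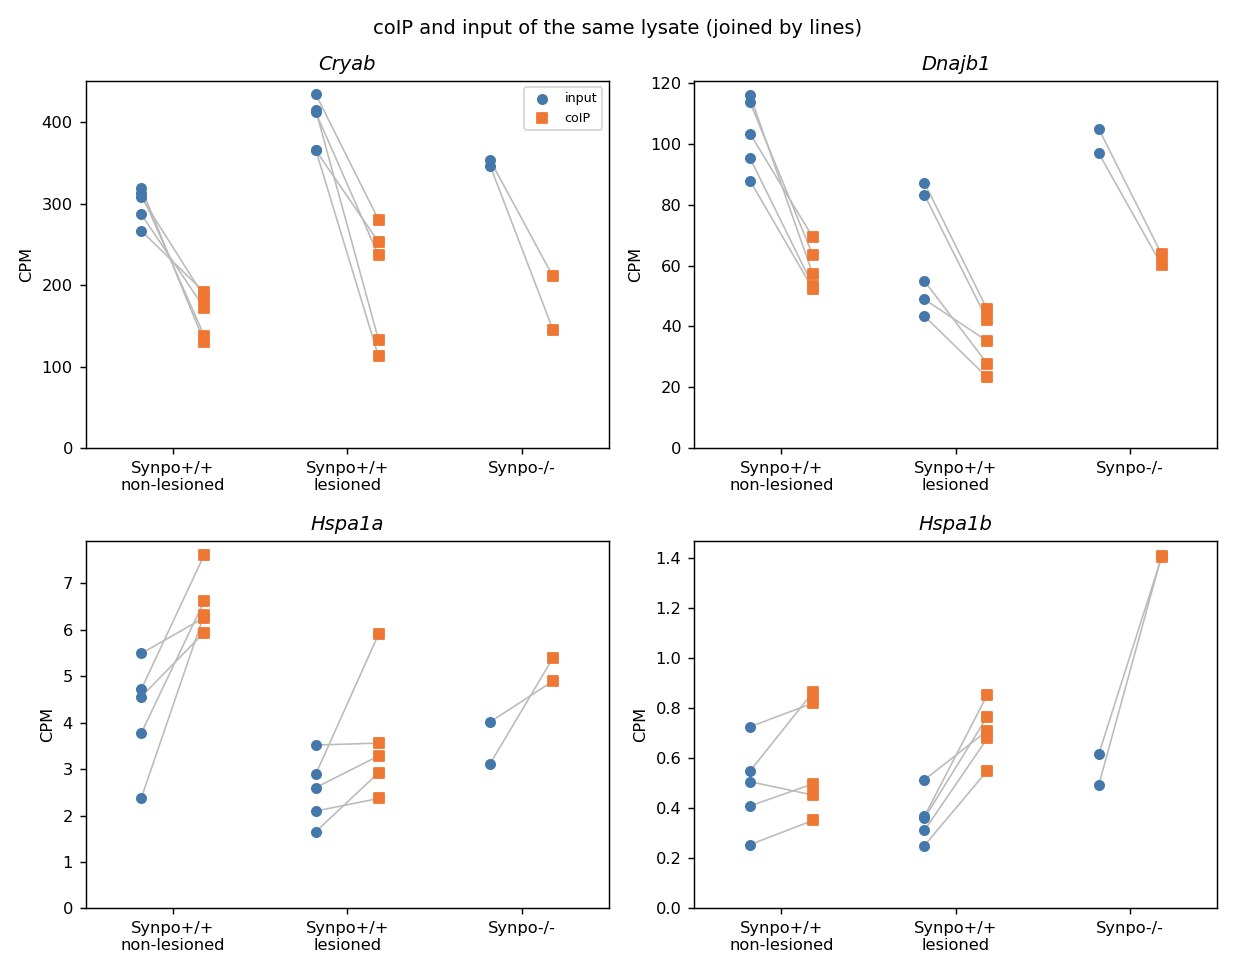
Levels of Cryab, Dnajb1, Hspa1a and Hspa1b in CPM (y axis, from 0) in input (blue circles) and coIP (orange squares) for the 3 sets of cultures (x axis). Grey lines join samples taken by number to share a lysate. Every line of Cryab and Dnajb1 runs down from input to coIP, in Synpo-/- as in Synpo+/+ cultures.

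Neither the genotype nor the lesion was shown to alter these ratios of coIP to input. The interaction of genotype and fraction called 0 members by edgeR, where 0% of 20621 genes were called, 0 members and 7.33% of all genes had an unadjusted p under 0.05, and DESeq2 called 0 of the 6 members to which it gave an adjusted p. For Cryab it was -0.11 (SE 0.22, adjusted p 0.955) and for Dnajb1 0.098 (SE 0.19, adjusted p 0.951, edgeR). The interaction of lesion and fraction called 0 members, where 0% of 19581 genes were called, with 0 members and 2.22% of all genes at an unadjusted p under 0.05 and 0 members by DESeq2. It was -0.068 for Cryab (SE 0.25) and -0.027 for Dnajb1 (SE 0.26), each with an adjusted p of 1.0 by edgeR. Hspa8, Hspa5 and Hsph1 were called in none of the 3 sets, with log2 fold changes from -0.20 to 0.096. Nor were Hspb1 (-0.41 to 0.16) and Bag3 (0.0066 to 0.46), although Bag3 was called in Synpo-/- with the gene length trend removed (0.61, adjusted p 0.026, edgeR).

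Further chaperone genes were counted beside all genes, of which 25.5% were called lower and 29.6% higher in non-lesioned Synpo+/+ samples, 27.8% and 30.5% in lesioned Synpo+/+ and, in Synpo-/-, 3429 and 3138 of 20892 genes. Of 35 further heat shock and cochaperone genes, 34 were tested in non-lesioned Synpo+/+ samples, and 22 were called lower and 3 higher in the coIP (median -0.48, against 0.044 over all genes). In lesioned Synpo+/+ samples 21 were lower and 3 higher (median -0.51), and in Synpo-/- 12 were lower and 3 higher of 35 (median -0.27). By the smallest p, Dnaja1, an Hsp40, was first among the lower genes of non-lesioned samples (1.76-fold), Chordc1, an Hsp90 cochaperone, among lesioned samples (1.95-fold) and the small heat shock protein Hspb6 in Synpo-/- (2.77-fold). Bag6, a cochaperone of tail-anchored proteins, was first among the higher genes in each set (1.87-fold, 2.03-fold and 2.06-fold). Hsbp1, which binds and restrains heat shock factor 1, was lower in each set (2.35-fold, 2.46-fold and 2.27-fold) and Hsf2 higher (1.70-fold, 1.76-fold and 2.05-fold), each past the threshold by edgeR. Of 8 subunits of the chaperonin TRiC, 6, 7 and 0 were called lower, and of 8 mitochondrial chaperones 5 in each set. Of the 23 endoplasmic reticulum genes, 6, 5 and 7 were called higher and 4, 6 and 3 lower.

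Lesion in the whole-culture input moved 2 of the 9 members tested, where 5.61% of 17951 genes were called, and Hspa1b did not pass the filter on low counts. Cryab had 319, 287, 312, 308 and 267 CPM in non-lesioned inputs and 366, 415, 412, 366 and 434 in lesioned ones. It rose 1.33-fold with no overlap (log2 fold change 0.41, SE 0.078, adjusted p 0.00949, edgeR), a call lost in a fit over all libraries of the experiment (0.42, adjusted p 0.248). Dnajb1 fell 1.63-fold, from 87.9, 114, 116, 103 and 95.3 CPM to 48.9, 43.4, 54.9, 83.2 and 87.2 (-0.71, SE 0.18, adjusted p 0.0345, edgeR). The groups did not overlap, but replicates 4 and 5 of the lesioned inputs lay just below the lowest control. The call was lost without lesioned input replicate 1, 2 or 3 (adjusted p 0.0753, 0.0794 and 0.0953, edgeR) or control input replicate 2, 3 or 4 (0.0936, 0.0731 and 0.0635), each leaving 1 member called. The sign was opposite to that of Dnajb1 in Synpo+/+ DG and CA3, of which only CA3 was called. Those were single regions in a separate experiment, 3 days after ECL, while the input was of whole cultures at a time not given. Hspa1a (-0.73, adjusted p 0.112, edgeR) was called without control input replicate 1 (adjusted p 0.0394) and by DESeq2 (0.0498). The members' median was -0.049, against -0.0027 over all genes. Of the 34 further heat shock and cochaperone genes tested, 2 were called higher, with Hspb6 first (1.32-fold), and 4 lower, with Bag2 first (1.46-fold), where 2.45% of all genes were called higher and 3.16% lower, and Hsf1, heat shock factor 1, was 1.76-fold lower (adjusted p 0.0108, edgeR).

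Cell markers of the inputs give the setting of these values. Microglial markers were called higher in lesioned input for 4 of 10, astrocyte markers for 1 of 10 and oligodendrocyte markers for 0 of 13. The microglial sum was 923 to 1497 CPM in non-lesioned and 1314 to 2158 CPM in lesioned inputs, and that of astrocytes 19061 to 27262 and 24028 to 36169 CPM. The oligodendrocyte sum was lower in replicates 1 and 2 (2201 and 2675 CPM non-lesioned, 2496 and 3638 lesioned) than in replicates 3 to 5 (5534 to 6127 and 5651 to 6591). In the coIP against input, oligodendrocyte markers were called lower for 3, 3 and 1 of 13 and higher for 0, 0 and 1. Their part in the Cryab values was not tested.

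Further chaperone genes in the lesioned regions were counted in the same way. Of all genes tested, 7.86% were called higher and 4.31% lower in Synpo+/+ DG, 5.17% and 3.36% in Synpo-/- DG, 336 and 61 of 22340 genes in Synpo+/+ CA3 and 0.0530% and 0.0241% in Synpo-/- CA3. Of the 35 heat shock and cochaperone genes, 5 were called higher and 0 lower in Synpo+/+ DG (median 0.27, against -0.0030 over all genes, and 6 higher with a median of 0.18 without replicate 5), 5 higher and 2 lower in Synpo-/- DG (median 0.051 against 0.013), 4 higher and 0 lower in Synpo+/+ CA3 (median 0.18 against -0.010) and 0 in Synpo-/- CA3. First by p were Hspb8, the small heat shock protein that pairs with Bag3, in Synpo+/+ DG (1.96-fold, adjusted p 0.000265, edgeR), Dnajb5, an Hsp40, in Synpo-/- DG (2.43-fold, adjusted p 0.000509, edgeR), and Stub1, the chaperone-linked ubiquitin ligase Chip, in Synpo+/+ CA3 (3.67-fold, adjusted p 0.0149, edgeR). Hspa2 was the first of the lower genes of Synpo-/- DG (1.28-fold lower, adjusted p 0.0454, edgeR). The heat shock factor genes Hsf1, Hsf2 and Hsf4 and their regulator Hsbp1 were called in no regional lesion comparison, nor were the mitochondrial chaperones. Of the TRiC subunits 2 of 8 were higher in Synpo+/+ DG, with Cct3 first (1.37-fold, adjusted p 0.0169, edgeR). Immediate early genes, which report neuronal activity, were called higher for 8 of 11 in Synpo+/+ DG, 9 in Synpo-/- DG, 0 in Synpo+/+ CA3 and 4 in Synpo-/- CA3. Egr2 was first in Synpo+/+ DG (9.29-fold, adjusted p 0.000482, edgeR) and Egr1 in Synpo-/- DG (5.56-fold, adjusted p 1.05e-07, edgeR).

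Across the 39 regional libraries, deviations of log2 CPM from the group means gave each gene's nearest patterns among 11947 genes, for the 8 members with a mean count of at least 100. The points share library, depth and composition, so these are descriptions. Cryab was closest to Anxa5 (Pearson r 0.958), Lxn (0.929) and Pdzd11 (0.915). Hspa5 was closest to Hsp90b1 (0.909) and P4hb (0.893), both on the list of endoplasmic reticulum genes, and Copb2 (0.881). Hspb1 was closest to Dnajc3 (0.790), Mettl9 (0.787) and Pcbp1 (0.780), with weaker values than the abundant members. Hspa8 was closest to Glrx3 (0.956), Hsp90aa1 to Ola1 (0.913), Hsph1 to Mapk10 (0.931), Dnajb1 to Rab3a (0.907) and Bag3 to Ranbp3l (0.721). Without Synpo+/+ DG ECL replicate 5, an omission chosen after seeing the data, these 5 values were 0.934, 0.836, 0.884, 0.887 and 0.706, and none of the 5 genes was the closest any more, while Cryab with Anxa5 (0.957) and Hspa5 with Hsp90b1 (0.901) still were. Hspb1 was then closest to Pcbp1 (0.800). Among the members, Hspa8 and Hsph1 were the closest pair (r 0.872, Spearman's rho 0.802, and 0.806 and 0.745 without replicate 5), while Cryab and Hspb1, the 2 small heat shock proteins, had r -0.21 (rho -0.15).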

How the data were processed

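The deposited tables hold raw counts of reads per gene, 1 table per library for 63 libraries. Per the labels and the study's methods, the authors trimmed reads with cutadapt 3.5, aligned them to mm10 (GRCm38) with STAR 2.7.8a and counted them over GENCODE genes with featureCounts 2.0.1 without regard to strand. Depth is given in the report. Low counts carry counting error, and no value was averaged over samples by the authors.

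From these counts, genes passing filterByExpr were scaled by TMM and tested by edgeR's quasi-likelihood test (edgeR 4.0.16, limma 3.58.1, R 4.3.3), separately for each comparison on its own groups, with Benjamini-Hochberg adjustment over all genes tested and calls at an adjusted p under 0.05. CPM and CPM per kb of exon, and all summaries, were computed with Python 3.11.15 and pandas 2.3.3. The fitting code was tested on simulated data. DESeq2 1.42.0, size factors by RLE, all genes without the filter, 1 fit over all libraries of an experiment, a mean normalized count over 300, removal of a gene length trend, a replicate block and leaving out each library were tried as alternatives.

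Input and coIP samples of the same number were taken to share a lysate, which the labels do not state. For Synpo-/- the labels' preparation number was used because the replicate numbers of the inputs are crossed. Deviations from the group means correlated within the Synpo+/+ pairs, with r of 0.309 to 0.662 in non-lesioned and 0.159 to 0.696 in lesioned samples. Of 10 libraries in each of these sets, 9 and 7 correlated best with their own number. In Synpo-/-, with 2 libraries per fraction, both pairs have the same r (0.119) by construction. It is therefore 1 value and can hardly check the pairing. The tests of coIP against input did not use the pairs, except under the replicate block. The members, the pathway and marker lists and the tests were chosen with earlier results of these data known. The 10 members are always named. Of each pathway list, the called gene with the smallest p in each direction of a lesion or coIP comparison could be named, and for likeness the 3 genes with the highest Pearson r over deviations of log2 CPM (prior count 2), among genes with a mean count of at least 100.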

Additional observations from a re-analysis of the deposited data

Results flagged for a closer look

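In 100 groups of 4 to 10 libraries (10 genes), 13 values stood apart from the others of their group by Dixon's test, which flags about 1 in 20 groups by chance. The library with CA3 markers, Synpo+/+ DG ECL replicate 5, held 3 of them, the highest of 7 for Hsp90aa1 (2481 CPM), Hsph1 (261 CPM) and Hspa1b (5.59 CPM). Synpo-/- CA3 ECL replicate 6 was the lowest of 6 for Cryab (137 CPM) and Hsph1 (135 CPM). Synpo-/- DG ECL replicate 1 was the lowest of 4 for Hspa5 (458 CPM) and Hsph1 (120.0 CPM). Synpo-/- DG control replicate 5 was the highest of 7 for Hspa1a (7.27 CPM) and Bag3 (9.29 CPM). Replicate 1 of the non-lesioned Synpo+/+ samples was the highest of 5 for Hspa8 in the coIP (5316 CPM) and for Hspa5 in the coIP (1867 CPM) and the input (1829 CPM). Synpo+/+ DG ECL replicate 2 was the highest of 7 for Bag3 (15.6 CPM).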

How the results depend on the processing

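Over all settings, 3364 log2 fold changes kept their direction and side of the threshold, 57 passed it, 61 no longer did and 1 reversed. A further 190 changed sign while called in neither fit (median size 0.021 as reported, at most 0.41). Counts of members called that changed by over 1.5 times, or to or from 0, are given here, and the cause was not tested. Smaller changes are left out, such as 3 members called by DESeq2 for the regions in control Synpo+/+ (2 by edgeR). For the lesion in Synpo+/+ DG (1 called) DESeq2 gave 3, no filter 2, the fit over all libraries 5 and the replicate block 2. For Synpo+/+ CA3 (1) DESeq2 gave 2, no filter 3 and all libraries 0. For Synpo-/- DG (3) the replicate block gave 1, and for Synpo-/- CA3 (0) no filter gave 1. For DG against CA3, the replicate block gave 0 in control Synpo+/+ (2) and 6 in lesioned Synpo+/+ (0, where all libraries gave 2), and a mean normalized count over 300 gave 2 in lesioned Synpo-/- (5). For the genotype, DESeq2 and no filter gave 1 each in control DG (0), and the replicate block 3 in control CA3 (0). For coIP against input, the replicate block with the length trend removed gave 5 in non-lesioned Synpo+/+ (3), and all libraries gave 2 in Synpo-/- (4) and 1 for the lesioned input (2). Leaving out 1 library moved these counts within 1 to 2 (lesion, Synpo+/+ DG), 0 to 1 (lesion, Synpo+/+ CA3), 0 to 2 (regions, control Synpo+/+), 0 to 5 (regions, lesioned Synpo+/+), 3 to 8 (regions, lesioned Synpo-/-), 0 to 1 (genotype, control DG), 2 to 4 (coIP, Synpo-/-) and 1 to 3 (lesioned input). Hsph1 in non-lesioned coIP against input reversed from 0.074 (adjusted p 0.451) to -0.18 (adjusted p 0.0287, edgeR) under the replicate block with the length trend removed. Regional replicate numbers are not known to pair samples: 3 of 8 libraries correlated best with their own number for the lesion in Synpo+/+ DG (r -0.197 to 0.484) and 7 of 12 for the regions in control Synpo-/- (r 0.0926 to 0.462). The replicate block alone moved no coIP count by over 1.5 times. Hspa1b, at 6 to 80 counts in the coIP experiment, is limited by depth.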
